A study of Mus musculus with 22 samples.

Results

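The first mandibular molar of unmutated mice was compared between postnatal day 11 (P11) and postnatal day 5 (P5). The 11 libraries were those titled WT, 6 at P5 and 5 at P11, of 22 in the series. The animals were Tgfbr2+/+ littermates of mice that carry 1 copy of Tgfbr2 with the G357W change (Het), a mouse model of Loeys-Dietz syndrome, and the 11 Het libraries at the same ages are used here only to set their age effect beside that of WT. Each library holds RNA of whole molars, so ameloblasts, odontoblasts, pulp, follicle, vessels, nerves and attached tissue were measured together. The series text counts 8 WT and 5 Het mice for the 22 libraries. By that count the 11 WT and the 11 Het libraries outnumber their animals, so some share one, and the labels do not say which. P-values treat each library as separate and cover only the spread from library to library, which may be technical. Libraries were made with an unstranded kit, so reads of a gene and of an antisense or overlapping partner cannot be told apart.

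A tooth crown mineralises in steps. Secretory ameloblasts lay down enamel matrix made of amelogenin, ameloblastin and enamelin, which the protease MMP20 trims. Maturation ameloblasts then attach to the surface through a basal lamina that holds amelotin and ODAM, degrade the matrix with the protease KLK4 and move calcium, phosphate and bicarbonate. Odontoblasts beneath them make dentin around the pulp, and the root, with its follicle and periodontal ligament, grows before the tooth erupts through bone and oral epithelium. The comparison asks how the transcripts of a normal molar change over this period.

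The WT libraries held 35205844 to 41046235 counts in mouse genes at P5 (mean 38280014 ± 2018792, SD, n = 6) and 35879149 to 40744701 at P11 (mean 37919978 ± 1777778, SD, n = 5). The first principal component of the 1000 most variable genes took 79.6% of the variance and separated the ages, with P5 libraries at -50.4 to -43 and P11 libraries at 44.8 to 76.4. Libraries P11 WT 4 and 5 stood apart from P11 WT 1 to 3: they scored 76.4 and 70 on it against at most 49.4, and 32.3 and 19.9 on the second component (8.75%) against -16.1 to -28.7. In the library names these 2 carry the number 2 before a hyphen and the other 3 P11 WT libraries the number 1, while P5 WT libraries carry 3 or 4. The labels do not say what that number is, and it cannot be told apart from age. Many results are also given from P11 WT 1 to 3 alone against the 6 P5 libraries. The defining markers of dental tissue were present at both ages: the 25 tested secretory-stage enamel genes summed to 158044 to 173955 CPM (counts relative to library size after TMM scaling) at P5 and 20884 to 29690 at P11, and the 30 odontoblast and dentin genes to 25101 to 47453 and 40341 to 50725. The largest member of the latter sum was Col1a1, which is also on the osteoblast list. Dspp, of dentin, had 2565 to 3281 CPM at P5 and 709 to 1381 CPM at P11.

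The sequences before the enamel genes are shown because Ambn, Amelx, Enam and Odam held the largest shares of counts that changed, and they belong to one family of secreted mineral-binding proteins (SCPP), most of which stand together on chromosome 5. Below are the 100 bases before the RefSeq transcription start (GRCm38.p6), 5′ to 3′ on the strand of the transcript, for 5 enamel members and 2 bone and dentin members. Capitals mark the 7-letter word TGATTGG, which was noticed on reading these sequences and then counted.
Amelx, chrX:169187210-169187309 (minus strand): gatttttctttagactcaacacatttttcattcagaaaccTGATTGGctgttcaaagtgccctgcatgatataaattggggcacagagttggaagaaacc
Ambn, chr5:88455891-88455990 (plus strand): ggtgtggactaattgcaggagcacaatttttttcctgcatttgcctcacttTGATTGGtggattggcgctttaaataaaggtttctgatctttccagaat
Enam, chr5:88487875-88487974 (plus strand): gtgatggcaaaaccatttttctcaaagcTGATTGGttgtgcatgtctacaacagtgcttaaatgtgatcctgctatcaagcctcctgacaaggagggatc
Amtn, chr5:88376008-88376107 (plus strand): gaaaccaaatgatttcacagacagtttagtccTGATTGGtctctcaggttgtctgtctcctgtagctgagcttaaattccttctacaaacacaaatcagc
Odam, chr5:87884910-87885009 (plus strand): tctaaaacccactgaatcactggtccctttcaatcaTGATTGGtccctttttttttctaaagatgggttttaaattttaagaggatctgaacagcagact
Mepe, chr5:104325229-104325328 (plus strand): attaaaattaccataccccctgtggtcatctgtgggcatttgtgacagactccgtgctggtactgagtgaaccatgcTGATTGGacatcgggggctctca
Spp1, chr5:104435011-104435110 (plus strand): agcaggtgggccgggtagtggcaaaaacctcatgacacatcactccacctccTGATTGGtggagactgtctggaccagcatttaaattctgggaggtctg
The word began 72 to 23 bases before the start in these 7 genes. It was present on the transcript's strand within 100 bases of the start in 8 of the 11 genes of the SCPP list with a RefSeq promoter (72.7%), the eighth being Ibsp. It was not in Dmp1, Odaph or Sparc, of which Sparc is a relative counted with the family. Among all tested genes with a promoter it was in 512 of 13040 (3.93%, or 7.12% on either strand). Its share was 3.38% among genes at least 2-fold higher at P11 and 2.63% among those at least 2-fold lower. Of the carriers shown, Amelx, Ambn and Enam fell and Amtn, Odam, Mepe and Spp1 rose, so the word stands before genes of both directions. The word was picked from these same sequences, and the 7 printed are all carriers. Its higher share in the SCPP list than among all genes is therefore not a test. A match is a description of these letters and says nothing of what binds there.

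Across all genes, 10633 of 21510 tested (49.4%) differed between P11 and P5 at an adjusted p under 0.05 (edgeR quasi-likelihood test with Benjamini-Hochberg adjustment, two-sided). Higher at P11 were 5326 genes (24.8%) and lower 5307 (24.7%). Of protein-coding genes 30.2% were higher and 25.9% lower, and the list counts below are to be read beside these shares. At least 2-fold higher were 2086 (9.7%) and at least 2-fold lower 1794 (8.34%), and 117 rose and 42 fell more than 32-fold. With library totals alone in place of TMM factors the median of all genes moved by 0.13 on the log2 scale, from -0.01, and the split became 6992 higher and 3865 lower, so changes below are relative to the middle of all genes. For 6886 genes (32%) the P5 and P11 values did not overlap in any library. In whole molars a lower level can come from fewer cells of a type or from less RNA per cell, and these cannot be told apart.

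**Figure D1:**
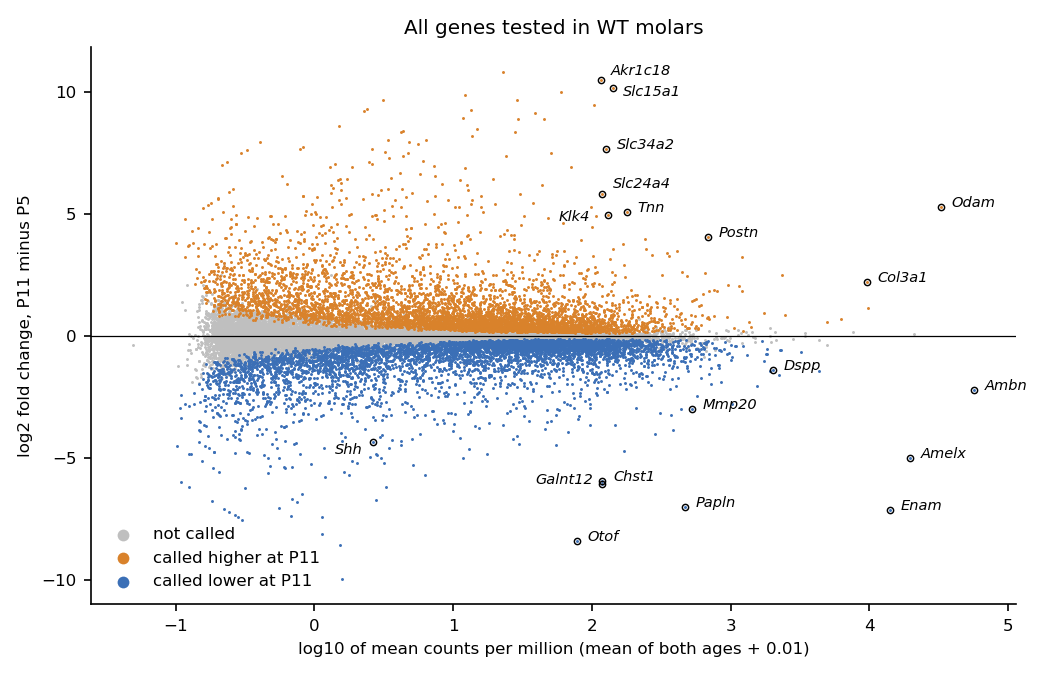
Mean of the P5 and P11 levels (x axis, log10 CPM with a small constant added) against the P11 minus P5 log2 fold change (y axis) for the 21510 tested genes, with called genes coloured by direction and named genes marked. Calls in both directions, 5326 higher and 5307 lower, spread over the range of levels.

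The enamel matrix genes fell and the genes of the maturation-stage surface rose. Amelx, Ambn and Enam together took 15.3% ± 0.518 of all counts at P5 (SD, n = 6) and 2.31% ± 0.47 at P11 (SD, n = 5). Odam, Amtn and Odaph together went the other way, from 0.166% ± 0.045 to 6.85% ± 0.306. Neither sum overlapped between the ages. The most abundant transcript by share of counts was Ambn at P5 (8.94%) and Odam at P11 (6.78%). On a scale per transcript length (TPM), Ambn stood at 155761 and Amelx at 122262 at P5, and Odam at 165408 at P11.

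Amelx (ENSMUSG00000031354, chrX:169176114-169187200, GRCm38), which encodes amelogenin, the main enamel matrix protein, had 30195, 41014 and 44102 CPM at P5 (lowest, median, highest) and 1658, 1501, 1658, 593 and 639 CPM in P11 WT 1 to 5. All P11 libraries lay far below all P5 libraries, and P11 WT 4 and 5 were lowest. Amelx fell by 4.98 ± 0.42 (log2, SE), 31.5-fold, with an adjusted p of 7.22e-10. Enam (ENSMUSG00000029286, chr5:88487975-88506049), which encodes enamelin, had 24983, 28498 and 31153 CPM at P5. At P11 its libraries read 356, 200, 388, 33.6 and 39.7 CPM, with P11 WT 4 and 5 again lowest and no overlap. Its change was -7.11 ± 0.87 (adjusted p = 2.83e-07), and -6.48 from P11 WT 1 to 3 alone. Ambn (ENSMUSG00000029288, chr5:88455991-88468531), the ameloblast adhesion and matrix protein ameloblastin, fell less: from 79668, 94312 and 105355 CPM at P5 to 23943, 21843, 22882, 17040 and 16537 CPM, or -2.19 ± 0.19 (adjusted p = 8.31e-10). At P11 it remained the third largest transcript by share of counts (2.16%).

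Odam (ENSMUSG00000009580, chr5:87885029-87894174) encodes the odontogenic ameloblast-associated protein of the maturation-stage basal lamina. Its P5 libraries read 1233, 1456 and 2323 CPM (lowest, median, highest) and its P11 libraries 63995, 58277, 61833, 70369 and 67218 CPM. The rise, 5.28 ± 0.19 (adjusted p = 3.91e-16), was of like size in every P11 library. Klk4 (ENSMUSG00000006948, chr7:43881160-43885804), the protease of the maturation stage, went from 6.7, 7.8 and 11 CPM to 291, 289, 307, 195 and 193 CPM, a change of 4.95 ± 0.17. Mmp20, the protease of the secretory stage, fell from 847, 904 and 1055 CPM to 117, 121, 122, 106 and 122 CPM, a change of -2.99 ± 0.10. The ratio of Klk4 to Mmp20 therefore moved by 7.92 on the log2 scale, from 0.00689 to 0.0123 at P5 to 1.58 to 2.51 at P11. It lay above all P5 libraries in 5 of 5 P11 libraries (exact permutation test, two-sided, p = 0.00433, the smallest of 462 relabellings, adjusted p = 0.00495 over 8 ratios). The ratio of Amtn, Odam and Odaph to Amelx, Ambn and Enam moved by 8.16, from 0.00784 to 0.015 at P5 to 2.49 to 4.01 at P11, with the same exact permutation p. In both ratios the genes compared moved in opposite directions without overlap. The libraries therefore had to separate, and the p adds no support beyond the single genes.

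**Figure D2:**
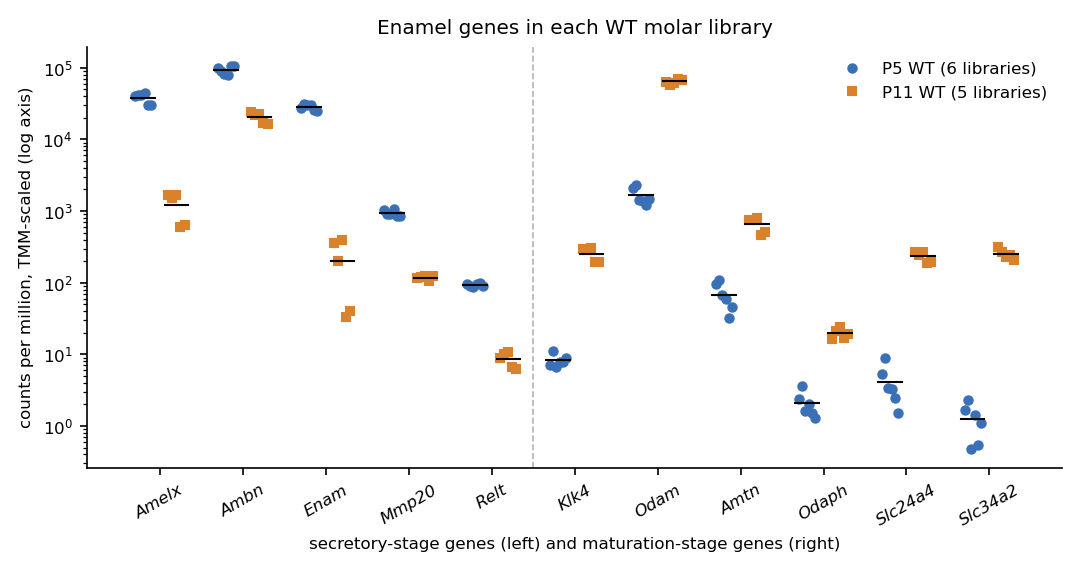
TMM-scaled CPM (log axis) of 11 enamel genes in each of the 6 P5 and 5 P11 WT libraries, 1 point per library and a line at each group's mean. Amelx, Ambn, Enam, Mmp20 and Relt lie lower at P11 and Klk4, Odam, Amtn, Odaph, Slc24a4 and Slc34a2 higher, without overlap between the ages.

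All 25 genes listed for secretory-stage enamel were tested and called, 17 lower and 8 higher, with a median change of -1.22 against -0.01 over all genes. Lower were also Relt, a receptor whose loss causes an enamel defect (-3.46), Acp4, a phosphatase needed for enamel (-2.47), Fam20a, the partner of the secretory kinase FAM20C (-2.27), the transcription factor gene Sp6 (-2.17) and Itgb6, an integrin subunit of ameloblasts (-2.01). The direction of the list did not cover every member. Gpr155 rose from 5.46, 6.59 and 9.05 CPM to 166, 222, 289, 133 and 229 CPM, a change of 4.92 ± 0.19. Rgs2, a regulator of G protein signalling (1.90), Itga6, the hemidesmosome integrin subunit (1.50), and Tuft1 (1.09) rose too.

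Among all genes tested, the 10 largest falls among genes with at least 10 CPM at P5 were led by Otof (chr5:30367062-30461932), which encodes otoferlin, a calcium sensor of vesicle release best known from inner hair cells. Otof had 137, 154 and 187 CPM at P5 and 0.232, 0.534, 0.787, 0.36 and 0.406 CPM at P11, a change of -8.39 ± 0.72 (adjusted p = 8.45e-10). It was thus close to absent in every P11 library. Papln, a matrix glycoprotein gene (-6.99), Galnt12, which starts mucin-type O-glycans (-6.07), and Chst1, a sulfotransferase of keratan sulfate (-5.94), fell too. Their highest P11 values were 9.61, 4.25 and 6.03 CPM against lowest P5 values of 762, 207 and 220 CPM. Ctnna2, a neural alpha-catenin (-4.72), Ttll11, a tubulin polyglutamylase (-4.64), Gpha2, a glycoprotein hormone subunit (-4.42), and Tmem108 (-4.09) completed the 10 with Enam and Amelx.

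Of the 30 genes listed for maturation-stage enamel, 29 were tested, 23 rose and 1 fell, with a median change of 2.09. Slc34a2, a sodium-phosphate cotransporter, rose most, from 0.482, 1.27 and 2.31 CPM to 318, 268, 230, 243 and 205 CPM, a change of 7.65 ± 0.26 (adjusted p = 1.56e-16). Slc24a4, the sodium-calcium exchanger whose loss leaves enamel poorly mineralised, rose from 1.5, 3.35 and 8.85 CPM to 264, 244, 271, 190 and 193 CPM, a change of 5.81 ± 0.36. In both genes every P11 library was many times above every P5 library. Car6, a secreted carbonic anhydrase (4.60), Slc5a8, a monocarboxylate transporter (4.57), Wdr72, an endocytosis protein needed for enamel maturation (3.47), Amtn (3.26), Odaph (3.22) and the chloride channel gene Cftr (2.89) rose without overlap. The single gene that fell was Slc39a4, a zinc importer, from 3.23 to 5.45 CPM down to 0.508 to 1.5 CPM (-2.17 ± 0.22).

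Among the 10 largest rises, Akr1c18, which encodes a 20-alpha-hydroxysteroid dehydrogenase (chr13:4132615-4150654), led with 0, 0.132 and 0.306 CPM at P5 against 215, 218, 202, 254 and 272 CPM at P11. Its change was 10.49 ± 0.25 (adjusted p = 3.09e-19), and the 6 P5 libraries held 35 counts in all against 46423 at P11. Slc15a1, a peptide transporter, rose from at most 0.445 CPM to 349, 226, 281, 313 and 253 CPM (10.16 ± 0.30). Slc6a14, an amino acid transporter, rose from at most 0.135 CPM to 44.9, 57, 63.1, 55.8 and 68.1 CPM (9.67 ± 0.35). These 3 were even across the P11 libraries. So were Triml1 (9.88), with 19.2 to 32.4 CPM, and Ptchd4 (8.92), with 21.3 to 26.4 CPM, although their P5 levels rest on 5 and 10 counts, which leaves the size of the fold loosely set. The other 5, Krt6b, Fam25c, Tmprss11d, Krt4 and Rptn, were not even: each was highest in P11 WT 4 and next highest in P11 WT 5, and they are described with the oral epithelium.

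Genes of calcium handling and acid-base balance rose more often than they fell. Of 29 tested genes for calcium entry, exchange and buffering, 14 rose and 5 fell (median 0.22). The store-operated entry genes rose together: the sensors Stim1 (0.91 ± 0.09) and Stim2 (0.71 ± 0.12) and the channel genes Orai1 (1.09 ± 0.13) and Orai2 (1.22 ± 0.10). The release channels went opposite ways, with Itpr2 up from 13.2, 16.9 and 20.9 CPM to 134, 130, 146, 126 and 128 CPM (2.99 ± 0.09) and Itpr1 down from 135, 201 and 259 CPM to 66.6, 67.5, 70.2, 57.7 and 71.8 CPM (-1.57 ± 0.16). Neither overlapped between the ages. The exchangers Slc24a2 (-3.41) and Slc24a3 (-1.27) fell where Slc24a4 rose. Calb1, which encodes the abundant calcium buffer calbindin, had 4609 to 6411 CPM at P5 and 3276 to 4993 CPM at P11, and did not pass the test (adjusted p = 0.0626). It passed without P11 WT 1 or 3 (-0.44 and -0.43). Of 17 carbonic anhydrase and aquaporin genes, 9 rose and 1 fell (median 0.57), among them Car3 (1.48) and Car2 (0.79). Aqp3, a water and glycerol channel of keratinised epithelium, was uneven at P11, with 10.3, 19.8, 13.5, 200 and 126 CPM, and had a change of 3.10 from P11 WT 1 to 3.

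Claudins, the proteins that set what passes between epithelial cells, split. Of 12 tested, 4 rose and 6 fell (33.3% and 50%, against 24.8% and 24.7% of all genes and 30.2% and 25.9% of protein-coding genes). Cldn10 fell from 67.5, 86.7 and 108 CPM to 7.68, 9.85, 9.67, 5.33 and 5.63 CPM (-3.53 ± 0.22) and Cldn20 by 2.47 ± 0.17. Cldn1, a barrier claudin, rose from 188 to 224 CPM up to 462 to 643 CPM (1.35 ± 0.16), and Cldn12 rose by 0.61 ± 0.07.

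The SCPP family as a whole moved in both directions. All 14 tested genes of its list, which also counts Sparc and another relative of the family, were called. Of these 8 were higher and 6 lower (6 and 6 from P11 WT 1 to 3). Besides Amelx, Ambn, Enam and Dspp, Csn3, the kappa-casein gene, fell from 321, 689 and 1052 CPM to 73.2, 59.9, 64.9, 27.9 and 29 CPM, a change of -3.83 ± 0.56 (adjusted p = 4.37e-06). Among members of bone and dentin, Spp1, which encodes osteopontin, rose from 19, 24.6 and 43.2 CPM to 212, 277, 234, 249 and 246 CPM (3.17 ± 0.25). Ibsp, bone sialoprotein, rose from 140, 196 and 203 CPM to 762, 953, 817, 1634 and 1398 CPM (2.58 ± 0.20, or 2.18 from P11 WT 1 to 3). Mepe was low, at most 0.296 CPM at P5 and 1.11, 0.891, 0.517, 7.92 and 5.71 CPM at P11. Its rise of 4.49 ± 1.07 did not pass the test from P11 WT 1 to 3 alone (2.55, adjusted p = 0.0707).

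Genes of odontoblasts and dentin moved both ways: 13 of 30 rose and 11 fell, with a median of 0.13, and from P11 WT 1 to 3 the counts were 11 and 12. Dspp, which encodes the main non-collagen protein of dentin, fell from 2565, 2954 and 3281 CPM to 1106, 1376, 1381, 709 and 1076 CPM (-1.38 ± 0.13, adjusted p = 5.26e-09). The P5 and P11 values did not overlap, and P11 WT 4 was lowest. Dmp1, an acidic matrix protein of early dentin and of osteocytes, had 132, 158 and 198 CPM at P5 and 206, 215, 182, 428 and 343 CPM at P11. Its rise of 0.79 ± 0.24 (adjusted p = 0.00807) was 0.34 without P11 WT 4 and 5 and did not then pass the test (adjusted p = 0.269). The ratio of Dspp to Dmp1 fell in every P11 library, from 15.9 to 22.5 at P5 to 1.65 to 7.59 (exact permutation test, p = 0.00433). Fam20c, the kinase that phosphorylates SCPP proteins (-1.69), Phex, an endopeptidase of phosphate balance (-0.73), and the Wnt ligand genes Wnt6 (-2.34) and Wnt10a (-1.43) fell too. Panx3, a channel of mineralising cells, rose (1.64 ± 0.09).

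Col3a1 rose from 3163, 3393 and 3839 CPM to 12312, 13332, 12445, 20763 and 19983 CPM (2.20 ± 0.16), highest in P11 WT 4 and 5. Col1a2 rose by 1.16 ± 0.10. Col1a1 did not pass the test (0.08 ± 0.33, adjusted p = 0.869): its P5 libraries ranged from 9057 to 30447 CPM, a spread that took in all P11 libraries (18915 to 26432 CPM). The ratio of Col1a1 to Col3a1 was 2.86 to 9.52 at P5 and 1.14 to 1.63 at P11 (exact permutation test, p = 0.00433).

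Genes of the cells that resorb bone rose as a group. Of 16 tested osteoclast genes, 14 rose and none fell, with a median of 2.38, and their summed level went from 229 to 270 CPM at P5 to 607 to 725 CPM at P11. Acp5, which encodes the phosphatase TRAP, rose from 6.69, 8.67 and 12.7 CPM to 85.6, 112, 113, 81.6 and 78.5 CPM (3.34 ± 0.21). The collagen protease gene Ctsk rose from 21.3, 27.1 and 32.5 CPM to 141, 177, 171, 143 and 134 CPM (2.47 ± 0.14). The rise was present in each P11 library and as large in P11 WT 1 to 3 (list median 2.46). Oscar, a receptor of osteoclast precursors (3.10), Dcstamp, which drives their fusion (3.08), the proton pump subunit gene Atp6v0d2 (2.74) and Mmp9 (2.66) rose. Tnfsf11, which encodes the osteoclast-inducing ligand RANKL, rose from 0.167 to 0.284 CPM up to 1.25 to 1.68 CPM (2.55 ± 0.37), and Tnfrsf11b, its decoy receptor, from 16.6 to 26.5 CPM up to 50 to 70.3 CPM (1.45 ± 0.16). Their ratio moved by 1.00 on the log2 scale (exact permutation test, p = 0.00433).

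Of 21 tested osteoblast and osteocyte genes, 15 rose and 1 fell (median 0.81), and from P11 WT 1 to 3, 12 rose and 2 fell (median 0.59). Mmp13, a collagenase of mineralising tissue, rose from 49.7, 67.7 and 79.9 CPM to 730, 826, 766, 722 and 737 CPM (3.50 ± 0.12). The osteoblast transcription factor gene Sp7 (0.70 ± 0.18) and the osteocalcin gene Bglap (0.63 ± 0.12) rose less, Sp7 without a call when P11 WT 4 and 5 were the only P11 libraries (0.60). The list's summed level overlapped between the ages, 10758 to 32175 CPM at P5 and 23134 to 31286 at P11, with Col1a1 as its largest member.

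Genes of the root, follicle and periodontal ligament were mostly higher: 20 of 30 rose and 4 fell, with a median of 0.91 (0.94 from P11 WT 1 to 3). Tnn, which encodes tenascin-W, a matrix protein of periosteum and ligament, rose from 7.79, 10.2 and 12.4 CPM to 253, 314, 275, 420 and 473 CPM (5.07 ± 0.24). Postn, periostin, which links collagen in the ligament, rose from 60.8, 80.6 and 95.4 CPM to 1017, 1380, 1163, 1402 and 1503 CPM (4.05 ± 0.16). Both were above the P5 range in every P11 library, and highest in P11 WT 4 and 5. Aspn, a leucine-rich matrix proteoglycan that limits mineral (3.57), Scx, a transcription factor of tendon and ligament (3.50), Pthlh, the hormone-like signal needed for eruption (2.57), and its receptor gene Pth1r (0.81) rose. Those that fell were Gli1, a hedgehog target that marks root progenitors (-2.54), Fmod, fibromodulin (-1.40), Osr2 (-0.25) and Tnc (-0.19). Osr2 and Tnc lost their calls with library totals alone, Tnc also from P11 WT 1 to 3 and without any 1 of P11 WT 2, 3 and 4 or P5 WT 2 to 6, and Osr2 without P5 WT 5 or 6. Nfic, a transcription factor required for roots, had 73.5 to 103 CPM at P5 and 86.8 to 97.6 CPM at P11. It did not pass the test (adjusted p = 0.344), but did with library totals alone (0.23).

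Pulp mesenchyme genes tended down: 5 of 22 rose and 11 fell, with a median of -0.27. Fgf3 and Fgf10, growth factors that signal from papilla to epithelium, fell from 2.28 to 4.5 CPM and 1.73 to 2.64 CPM to at most 0.335 and 0.713 CPM (-4.13 ± 0.47 and -2.04 ± 0.36). Rspo4, a Wnt enhancer, fell from 162, 180 and 201 CPM to 15.4, 14.9, 21.5, 9.86 and 11 CPM (-3.64 ± 0.23), and Vcan, a large proteoglycan of loose matrix, by 1.06. Sfrp1, a Wnt antagonist, rose by 1.08 ± 0.07.

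Of 17 sonic hedgehog genes tested, 8 fell and 4 rose. The ligand gene Shh fell from 3.04, 5.11 and 6.49 CPM to 0.155, 0.356, 0.492, 0.048 and 0.178 CPM (-4.33 ± 0.48, adjusted p = 6.05e-08). Of the genes that hedgehog signal is known to induce, Gli1 fell from 47.7, 50.8 and 60.7 CPM to 11.3, 10.6, 10.9, 5.98 and 5.91 CPM (-2.54 ± 0.19), the receptor gene Ptch1 by 2.16 and Hhip from 43.6 to 56.8 CPM down to 3.07 to 11.1 CPM. None overlapped between the ages, and the 3 named targets were lowest in P11 WT 4 and 5. The 4 that rose were Gas1, a surface co-receptor (2.69 ± 0.18), Scube2, which helps release the ligand (2.06 ± 0.19), the co-receptor gene Boc (0.80 ± 0.09) and the transducer gene Smo (0.35 ± 0.10). Smo had 0.09 and no call with P11 WT 4 and 5 as the only P11 libraries. Disp1, which also helps release the ligand, fell by 0.64.

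Wnt genes changed in both directions, 14 of 30 higher and 9 lower. The ligand gene Wnt10b rose from 0.454, 0.76 and 1.13 CPM to 25.1, 20.7, 22.7, 20.8 and 15.5 CPM (4.66 ± 0.20), while Wnt6 and Wnt10a fell. Secreted antagonists rose in the case of Sfrp4 (3.75 ± 0.15) and Sfrp2 (2.08 ± 0.18) and fell in that of Dkk1 (-1.60 ± 0.14). Wnt5a, a ligand of mesenchyme, rose by 0.44. Of 25 BMP genes, 8 rose and 9 fell (8 and 6 from P11 WT 1 to 3). These are 32% and 36%, against 24.8% and 24.7% of all genes and 30.2% and 25.9% of protein-coding genes. Grem1, a secreted BMP antagonist, rose from 0.0281, 0.188 and 0.78 CPM to 7.73, 11.9, 8.24, 17.1 and 17.9 CPM (5.54 ± 0.42). Of the Id genes, targets of the pathway, Id4 rose by 1.99, Id2 fell by 0.41, without a call from P11 WT 1 to 3 (-0.30), and Id1 (-0.16) and Id3 (-0.02) did not pass the test. The ligand genes Bmp5 (-2.49), Bmp2 (-0.58) and Bmp4 (-0.54) and the antagonist gene Sostdc1 (-1.42) fell, Bmp4 without a call from P11 WT 1 to 3 (adjusted p = 0.0544).

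TGF-beta genes, the pathway of the mutated receptor, split too, 11 of 25 higher and 8 lower. Tgfbr2 itself, unmutated here, had 156, 185 and 192 CPM at P5 and 106, 118, 115, 110 and 111 CPM at P11 (-0.68 ± 0.07, adjusted p = 1.54e-08). Its partner receptor gene Tgfbr1 fell by 0.41 ± 0.06, and the co-receptor gene Tgfbr3 by 1.71 ± 0.19. Of the ligands, Tgfb1 rose (0.76 ± 0.11) and Tgfb2 fell (-0.36 ± 0.06). Genes that the pathway is known to induce differed. Thbs1, thrombospondin 1, rose from 35.5, 37.9 and 47.8 CPM to 240, 257, 256, 215 and 230 CPM (2.61 ± 0.10) and Tgfbi rose by 1.20 ± 0.07. The feedback gene Smad7 fell by 0.48, at the edge of the threshold (adjusted p = 0.0486). It had no call from P11 WT 1 to 3 (-0.22), in a fit of the 11 WT libraries alone or with library totals alone. Leaving out any 1 of P11 WT 1, 2, 4 and 5 or of P5 WT 1 to 6 also ended its call. Skil (-0.19) did not pass the test. Of 16 Notch genes, 2 rose and 5 fell, with 43.8% called against 49.4% of all genes and 56% of protein-coding genes. Among those that fell were Notch2 (-1.16 ± 0.20) and the target gene Hey1 (-0.86 ± 0.10).

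Transcription factor genes of odontogenic mesenchyme were divided, 11 of 26 higher and 8 lower. Msx1, needed for tooth buds to progress, fell by 0.81 ± 0.12, and Dlx5 by 1.25 ± 0.14. The paired LIM genes of jaw mesenchyme went apart: Lhx8 rose from 6.41, 8.33 and 8.97 CPM to 29.9, 31.5, 33.8, 25.6 and 27.7 CPM (1.88 ± 0.10), and Lhx6 fell by 0.52 ± 0.10. Twist1 rose by 1.72 ± 0.16. Barx1, a molar determinant, did not pass the test (0.07 ± 0.12, adjusted p = 0.681).

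Krt14 and Krt5, the basal layer keratins, rose from medians of 727 and 324 CPM at P5. At P11 Krt14 read 2869, 3260, 2726, 5684 and 5514 CPM (2.49 ± 0.17) and Krt5 1210, 1226, 1070, 1282 and 1157 CPM (1.89 ± 0.09). Krt5 was even across the P11 libraries, while Krt14 was higher in P11 WT 4 and 5 than in P11 WT 1 to 3. Krt15 went the other way (-1.03 ± 0.39, adjusted p = 0.0296), with 1 P11 library, at 65.1 CPM, within the P5 range of 42.2 to 75.1 CPM. It lost its call without P11 WT 1, 2, 3 or 5 or without P5 WT 2 or 3 (-0.81 to -1.03). Of the 24 dental epithelium genes tested, 10 rose and 8 fell.

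All 20 tested oral keratinocyte genes were called higher with the 5 P11 libraries (median 6.20), 8 of the 20 with P11 WT 1 to 3 (median 1.72) and 10 of the 20 by limma-voom with all 5. Their summed level was 43.2 to 57 CPM at P5 and 156, 245, 177, 2521 and 1112 CPM in P11 WT 1 to 5. Krt4 and Krt13, the pair of non-keratinising lining, and Rptn, a cornified envelope protein, read 305, 231 and 365 CPM in P11 WT 4 and 81, 59.8 and 80.2 CPM in P11 WT 5. In P11 WT 1 to 3 the same genes stayed at or below 1.32, 2.29 and 2.62 CPM. None of the 3 passed the test there (adjusted p = 0.428, 0.233 and 0.0701). Krt6a and Krt6b, stress and junctional epithelium keratins, were higher in all 5: Krt6a had 39.8, 78.7, 60.3, 303 and 219 CPM against at most 1.61 CPM at P5, and Krt6b 12.3, 30.2, 19.4, 325 and 206 CPM against at most 0.33 CPM. Both kept their calls from P11 WT 1 to 3 (5.67 and 7.47), as did Fam25c (8.37) and Tmprss11d (5.84). Skeletal muscle markers, from tissue outside the tooth, were low throughout, 16.8 to 23.8 CPM summed at P5 and 32.2, 44.8, 33.7, 58.8 and 40.1 CPM at P11, with 9 of 15 higher. Acta1, skeletal actin, rose by 2.45 ± 0.82 and had no call from P11 WT 1 to 3 (adjusted p = 0.121) or without P11 WT 4 (2.00). With scores of the oral keratinocyte and muscle lists as covariates, the members called higher went from 18 to 10 for the lysosome list, from 14 to 8 for the erythroid list and from 10 to 4 for the dental epithelium list, and those called lower from 9 to 4 for the macrophage and dendritic list. The lysosome median stayed at 0.26. Both scores separated the WT ages: mean log2 CPM was -1.55 to -1.04 at P5 and 0.67 to 6.14 at P11 for keratinocytes. For muscle it was -1.34 to -0.54 and 0.58 to 1.55. The covariates thus take up part of the age difference, and lost calls cannot be assigned to attached tissue.

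**Figure D3:**
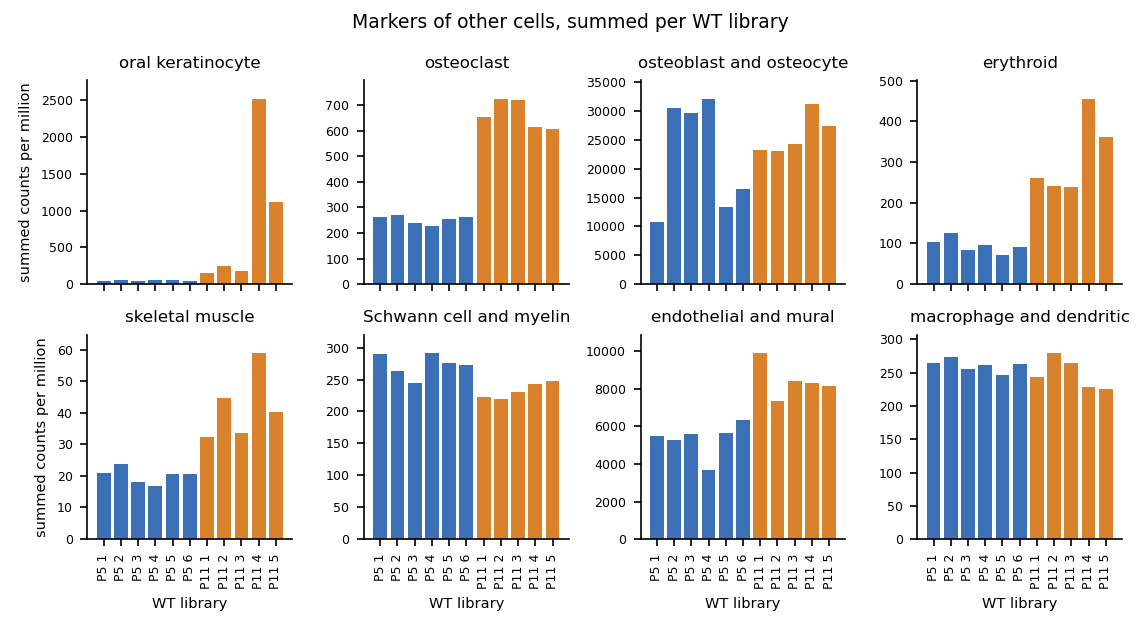
Summed CPM of 8 marker lists of other cell types (bars, axes from 0) in each of the 11 WT libraries. Oral keratinocyte markers stand at 2521 and 1112 CPM in P11 WT 4 and 5 and at no more than 245 CPM elsewhere, while osteoclast markers are at 607 to 725 CPM in all P11 libraries.

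Vessel genes were modestly higher: 13 of 22 endothelial and mural genes rose and 2 fell, with a median of 0.35. Flt1 and Kdr, the VEGF receptors, rose by 1.10 ± 0.10 and 0.49 ± 0.09, Pecam1, an endothelial junction protein, by 0.79 ± 0.07 and the ligand gene Vegfa by 1.50 ± 0.14. Kcnj8, a pericyte potassium channel and 1 of the 2 that fell, went from 36.1, 40.5 and 45.6 CPM to 11.3, 12.1, 9.22, 10.3 and 8.65 CPM (-1.99 ± 0.11). It does not stand for mural genes, since others of the list were called higher. Erythroid genes were higher at P11. Of 18 erythroid genes 14 rose and none fell (median 1.79), against 12 that rose from P11 WT 1 to 3 (median 1.37), with summed levels of 71.3 to 125 CPM at P5 and 260, 240, 238, 456 and 361 CPM at P11. Hbb-bs, an adult beta-globin, rose from 27.7, 36.5 and 53.6 CPM to 134, 122, 116, 255 and 186 CPM (2.12 ± 0.20). Globin genes are near copies, so reads can be split between Hbb-bs and Hbb-bt.

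Schwann cell and myelin genes moved in both directions. All 19 tested Schwann cell and myelin genes were called, 12 higher and 7 lower. Mbp, a myelin sheath protein, rose from 4.37, 5.25 and 6.76 CPM to 25.4, 22.1, 24.5, 31.4 and 28.9 CPM (2.27 ± 0.13). Ngfr and S100b, expressed by immature Schwann cells and other cells, fell by 1.47 and 1.17. Other myelin genes of the list fell and other glial genes rose, so the genes named here do not stand for the list. The list's sum did not rise, 244 to 291 CPM at P5 and 219 to 248 at P11. Of 22 genes for growth and guidance of nerves, 14 rose and 3 fell, with Sema3c (3.11 ± 0.16) and Ntn1 (2.07 ± 0.14) up.

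Of 23 macrophage and dendritic genes tested, 8 rose and 9 fell (9 and 5 from P11 WT 1 to 3), and the sum was 247 to 274 CPM at P5 and 226 to 279 at P11. Markers of resident macrophages fell: Cd163 from 10 to 14.9 CPM down to 2.11 to 3.69 CPM (-2.23 ± 0.19), Lyve1 by 2.68 and Mrc1 by 1.04. Antigen presentation genes rose: H2-Aa from 1.75 to 3.09 CPM up to 7.33 to 12 CPM (1.95 ± 0.21) and Cd74 by 1.82. Csf1r, expressed by nearly all macrophages, did not pass the test (adjusted p = 0.103), though it did without P11 WT 4 or 5 (0.30 and 0.31). It also passed from P11 WT 1 to 3 (0.42), with library totals alone (0.38) and with the keratinocyte and muscle covariates (0.45). Ptprc, the pan-leukocyte gene, did not pass the test either (adjusted p = 0.169), but did with library totals alone (0.37). Trbc2, a T cell receptor constant segment, rose from 0.909 to 1.24 CPM up to 5.14 to 8.48 CPM (2.63 ± 0.21). Kit, which marks mast cells and other lineages, fell from 212 to 318 CPM down to 79.1 to 101 CPM (-1.52 ± 0.11), while the mast cell protease genes Cpa3 (1.93) and Cma1 (1.10) rose.

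Cell-wide programs were counted from the same fit. Cell cycle genes were higher by small amounts: 26 of 30 rose and 1, Cdk2, fell by 0.19, with a median of 0.53 and a highest change of 0.97. Cdk2 had no call from P11 WT 1 to 3 or with library totals alone. Mki67, the proliferation antigen, rose from 27.2, 35.4 and 38.6 CPM to 62.8, 59, 71.3, 56.2 and 56.9 CPM (0.85 ± 0.10), and Top2a by 0.65. Of 24 glycolysis and hypoxia genes, 19 rose and 2 fell (median 0.81), led by Hif1a, the hypoxia-regulated transcription factor, from 76.2, 82.3 and 86.8 CPM to 295, 287, 272, 312 and 333 CPM (1.87 ± 0.07). Ldha rose by 1.71 and the glucose transporter gene Slc2a1 by 1.46, while the hexokinase gene Hk2 fell by 0.88. Of 29 lysosome and endocytosis genes, 18 rose and 3 fell, among the risers the proton pump subunit gene Atp6v1b2 (1.18) and the cathepsin gene Ctsb (0.87).

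Iron genes included large moves in both directions, 9 of 18 higher and 7 lower. Fth1, the ferritin heavy chain gene, rose from 126, 152 and 184 CPM to 789, 920, 941, 703 and 754 CPM (2.44 ± 0.10), Tfrc, the transferrin receptor, by 2.09 ± 0.13 and Ftl1 by 1.35. In rodent incisors, maturation ameloblasts store iron in ferritin. Steap1, of a metalloreductase family, fell from 52.8, 59.2 and 63.4 CPM to 6.34, 6.31, 5.44, 5.47 and 6.85 CPM (-3.26 ± 0.13). Genes of protein folding in the endoplasmic reticulum fell more than they rose, 11 and 7 of 26. These are 42.3% and 26.9%, against 24.7% and 24.8% of all genes and 25.9% and 30.2% of protein-coding genes. Chac1, a stress effector, fell by 1.95, Creb3l2, a membrane-bound regulator of secretion, by 1.23, and Xbp1 by 0.71. The chaperone gene Hspa5 fell by 0.29 ± 0.09 and lost its call with library totals alone. Of 30 ribosomal protein genes, 6 rose and 3 fell, or 2 and 6 from P11 WT 1 to 3. Among all genes 49.4% were called, and among protein-coding genes 56%.

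Of 19 circadian genes 11 rose and 4 fell, with Hlf up from 10.2, 14.6 and 15.9 CPM to 116, 128, 161, 78.3 and 110 CPM (3.08 ± 0.16), Bhlhe40 by 2.34 and Per2 by 1.55, and Clock down by 0.47. Of 21 immediate early genes 16 rose and 2 fell (median 1.38), with Junb (2.38 ± 0.15) and Nr4a3 (3.82 ± 0.40) up and Btg2 down (-1.49 ± 0.25). The summed levels overlapped between the ages, 996 to 1415 CPM at P5 and 1172 to 1372 at P11 for the circadian genes and 488 to 855 and 545 to 681 for the immediate early genes. The hour and handling at dissection are not given in the labels, and their part was not tested. Of 28 imprinted and fetal growth genes, 7 rose and 11 fell (25% and 39.3%). The shares were 24.8% and 24.7% among all genes and 30.2% and 25.9% among protein-coding genes. H19 rose by 1.47 ± 0.12, and Igf2bp1, a fetal RNA-binding protein (-2.01 ± 0.25), and Gpc3 (325 to 415 CPM at P5, 171 to 202 CPM at P11) fell. Igf2 was low at both ages (3.99 to 6.5 and 3.53 to 4.2 CPM), with -0.37 ± 0.15 at the edge of the threshold (adjusted p = 0.0497). It had no call with library totals alone or without any 1 of the P11 libraries or of P5 WT 1 to 4 (-0.25 to -0.40). Igf1 spread widely at P5, 488 to 1495 CPM, and did not pass the test.

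**Figure D4:**
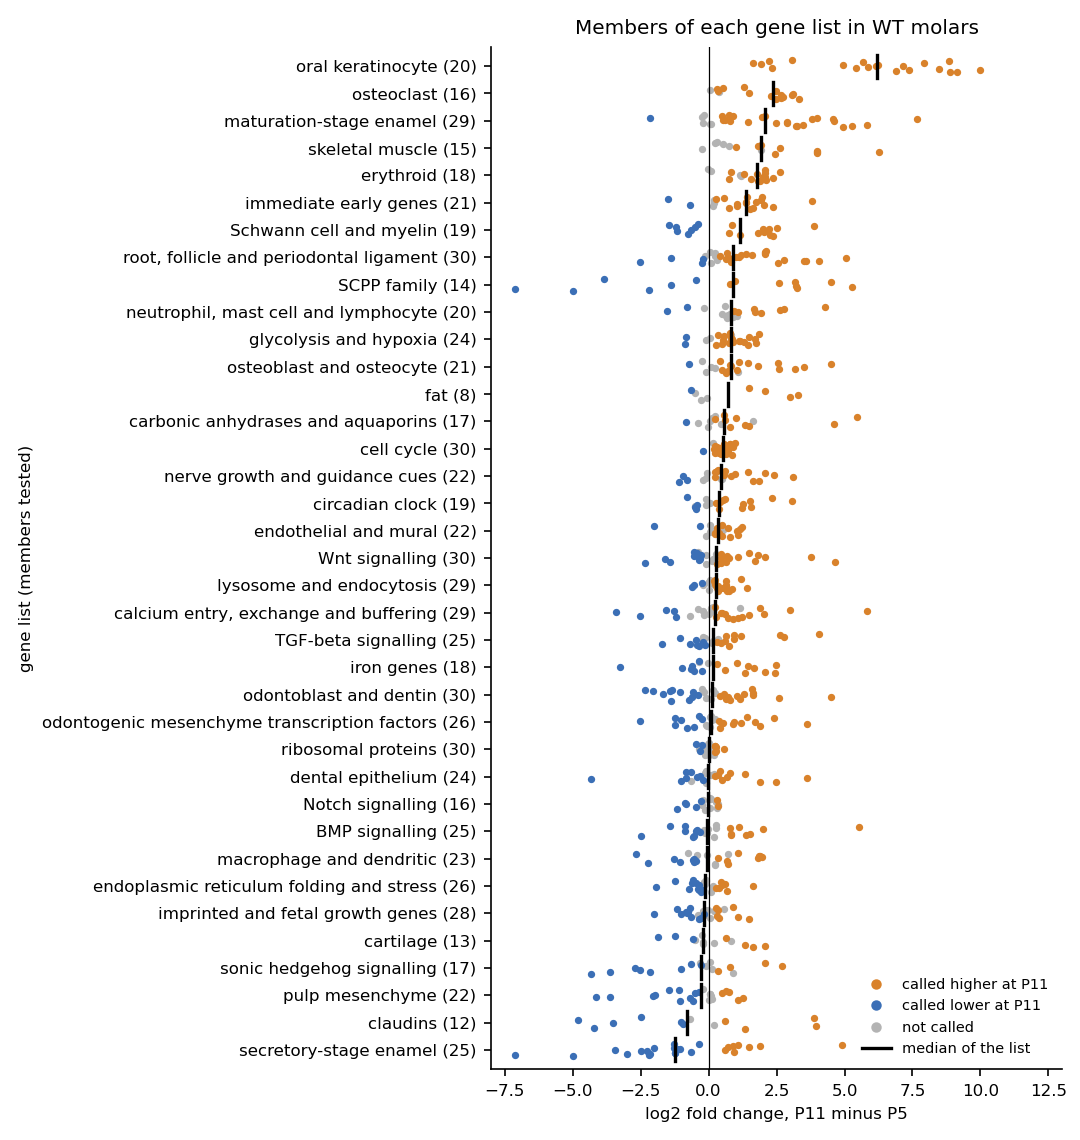
P11 minus P5 log2 fold change of each tested member of the 37 gene lists (points, coloured by call) with the list median (bar). The osteoclast and maturation lists lie mostly above 0, with medians of 2.38 and 2.09, and the secretory list mostly below, with -1.22.

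The age effect was also set beside that of Het molars, which share no library with WT but were in the same fit. Their names carry 1 or 2 before the hyphen at P11 and 3, 4 or 5 at P5. In Het too that number cannot be told apart from age. Of the 10633 genes called in WT, 10336 (97.2%) had the same sign in Het and 8150 were also called there in the same direction. Of the 3880 genes at least 2-fold changed in WT, 3315 (85.4%) were also called in Het in the same direction and 55 had the opposite sign. A test of the difference between the age effects called 3 genes (0.0139%), with 2213 at an unadjusted p under 0.05 and 56 called by DESeq2.

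The 3 genes were Steap1, F13a1 and Cldn20, and all fell less in Het. For Steap1 the change was -3.26 in WT and -1.60 ± 0.12 in Het, a difference of 1.66 ± 0.17 (adjusted p = 2.07e-05). Its Het level was already lower at P5, 23.6 ± 2.56 CPM against 58.4 ± 4.56 (SD, n = 6 each), and at P11 it was 7.79 ± 1.91 against 6.08 ± 0.613 (SD, n = 5 each). F13a1, coagulation factor XIII A, which macrophages make, fell by 1.96 in WT and 1.18 in Het, a difference of 0.78 ± 0.11 (adjusted p = 0.00223). Its WT libraries read 106, 116 and 123 CPM at P5 and 31, 33.2, 24.6, 30.5 and 28.8 CPM at P11. Cldn20 fell by 2.47 in WT and 1.03 in Het, a difference of 1.44 ± 0.23 (adjusted p = 0.0151). Enam fell by 7.11 in WT and 4.22 in Het, and Csn3 by 3.83 in WT against a change of 0.03 in Het. Neither difference passed the test (2.90 ± 0.92, adjusted p = 0.369, and 3.86 ± 0.72, adjusted p = 0.0823).

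**Figure D5:**
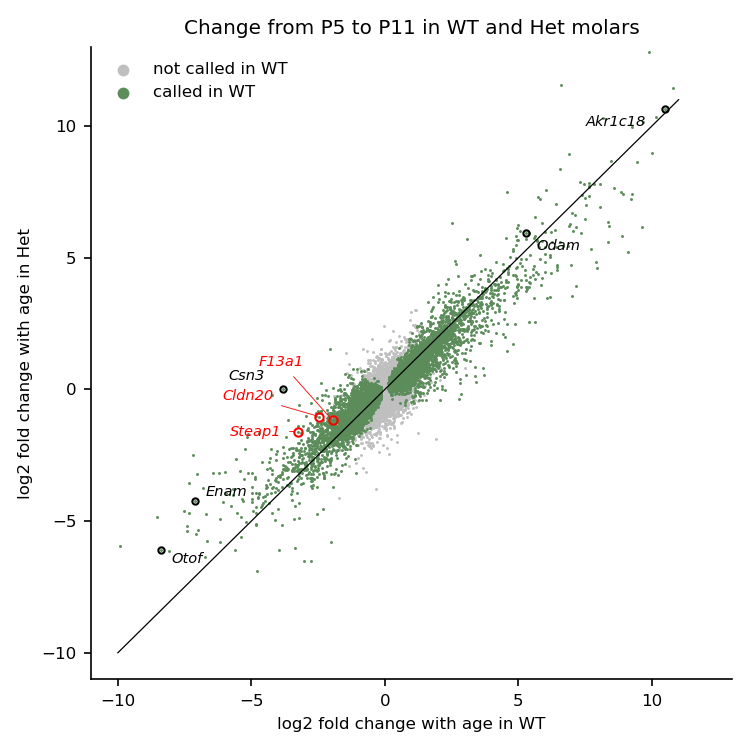
P11 minus P5 log2 fold change in WT (x axis) against that in Het (y axis) for all tested genes, with a line of equal change and Steap1, F13a1 and Cldn20 in red. Most genes called in WT share their sign in Het (97.2%), and the 3 marked genes lie nearer to 0 in Het than in WT.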

How the data were processed

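Whole first mandibular molars were sequenced in 22 libraries, of which the 11 WT libraries (6 at P5, 5 at P11) are compared here. Per the submitters' processing notes, the authors aligned reads with tools that include STAR 2.7.3a and used DESeq2, edgeR and limma with the mouse build GRCm38. Which program counted the reads, and over which annotation, is not given in the sources used here. Whole-number counts of reads per gene, not normalised, fill the deposited table. Its 55439 features include 18 that are not mouse genes, at most 0.000379% of a WT library, which were left out. Other tables that the authors deposited were not used.

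Groups came from sample titles. P5 Het replicate 6 is P5 in its title and P11 in its tissue field, and was kept as P5. Without it the difference between the age effects still called 3 genes, and Igf2 lost its call in WT. Genes kept by filterByExpr (minimum count 10, minimum total 15) numbered 21510, and 21483 matched GENCODE M21 for symbols, coordinates and exon length. edgeR 4.0.16 (R 4.3.3) fitted a quasi-likelihood model of all 22 libraries in 4 groups (age and genotype), scaled by TMM, with 18 residual degrees of freedom and a common dispersion of 0.0381. The test of P11 minus P5 in WT was two-sided, with Benjamini-Hochberg adjustment over all genes and a threshold of 0.05. CPM in the text are TMM-scaled, fold changes are log2, and the SE is the size of the log2 change over the root of the test's F statistic, which can be too small where a group holds few counts. TPM used union exon length and serves only to compare genes. Ratios within a library (1 added to each count) were tested by exact permutation over samples. Scripts were checked on simulated data. The alternatives were limma-voom (limma 3.58.1), DESeq2 1.42.0, other scalings and filters, left-out libraries, library subsets, covariates and replicate blocks. Every pair of WT libraries of 1 age differed beyond counting noise (chi-square per degree of freedom 8.3 to 92.7). Reads carry no molecular identifiers.

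Named are the 10 largest rises and falls among called genes (10 CPM or more in the higher group, no overlap, a proper symbol), and genes from the lists: the largest changes in each direction and the first members of each list, together with genes of the ratios and of the difference between genotypes. Not every gene so chosen is printed, and Sp6, Acp4, Fam20a, Itgb6, Wdr72, Slc5a8, Cftr, Id1, Id2, Id3, Smad7, Skil, Disp1 and Cma1 fall outside this rule and were chosen after their values were seen. The comparison, the 37 gene lists and the tests were chosen with earlier results of these data known. Promoters are from RefSeq (GRCm38.p6), with 13040 tested genes matched by symbol.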

Additional observations from a re-analysis of the deposited data

Results flagged for a closer look

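Of 394 sets of named-gene values (1 per gene and age), 12 had a single library far from the others of its age, where chance alone gives about 1 in 20, so these are given as values. At P5, P5 WT 4 was low for Aqp3 (0.731 CPM, others 1.45 to 2.1), Ibsp (140 CPM, others 177 to 203), Pth1r (19.7 CPM, others 21.8 to 22.8) and Tgfbr3 (507 CPM, others 911 to 1138). P5 WT 2 was high for Rptn (0.403 CPM, others 0.102 to 0.17) and Thbs1 (47.8 CPM, others 35.5 to 39.6) and low for Shh (3.04 CPM, others 4.9 to 6.49). P5 WT 1 was high for Ldha (371 CPM, others 279 to 296), and P5 WT 6 for Per2 (10.4 CPM, others 5.37 to 6.63). At P11, P11 WT 5 was low for Fgf10 (0.127 CPM, others 0.541 to 0.713) and H19 (78.7 CPM, others 110 to 124), and P11 WT 2 was high for Tnfsf11 (1.68 CPM, others 1.25 to 1.34).

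The age effect differed between Het and WT, by the test of that difference, for Steap1 (Het minus WT 1.66 on the log2 scale), Cldn20 (1.44) and F13a1 (0.78).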

How the results depend on the processing

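Over 26 alternatives, 171 of 197 named genes kept their side of the threshold, and their direction where called, in each that gave them a value. Genes without a call could change sign, as Id3 did with library totals alone (-0.02 to 0.11). DESeq2 gave no adjusted p for Otof and Ctnna2, and the filter of 50 counts removed Nr4a3. Leaving out 1 WT library at a time gave 5006 to 5540 genes higher, 4820 to 5063 lower, 2029 to 2179 at least 2-fold higher and 1664 to 1819 at least 2-fold lower. A test against a 2-fold threshold (glmTreat) called 1223 higher and 868 lower, fewer by its construction, and a filter of 50 counts in 5 libraries left 1110 genes at least 2-fold lower, from fewer genes tested. The number of genes whose age effect differed between genotypes was 56 by DESeq2, 36 with P11 WT 4 and 5 as the only P11 WT libraries, 5 without a filter or with library totals alone, and 2 to 6 with 1 library left out (6 without P5 WT 4, 2 without P11 WT 4). The cause was not tested. Upper quartile factors gave 46.2% of calls higher and library totals alone 64.4%.

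Oral keratinocyte and muscle scores were higher in every P11 WT library than in any P5 WT library, so as covariates they take up part of the age difference. With them 3765 genes were higher and 3598 lower. Acta1 (-1.0), Krt13 (-0.91), Krt4 (-1.48) and Rptn (-0.15), which are members of those lists or rise with them, then had the opposite sign. The covariates ended the calls of Bmp4, Cdk2, Cma1, Dmp1, Hbb-bt, Id2, Igf2, Lhx6, Mepe, Notch2, Smad7 and Tnc. From P11 WT 1 to 3 alone, 4719 genes were higher and 4662 lower, and 12 named genes lost their call: Acta1, Bmp4, Cdk2, Dmp1, Id2, Igf2, Krt13, Krt4, Mepe, Rptn, Smad7 and Tnc. With P11 WT 4 and 5 as the only P11 WT libraries, Cdk2, Hspa5, Igf2, Krt15, Osr2, Smo, Sp7 and Tnc had none. Limma-voom did not call Krt4, Krt13, Rptn, Tmprss11d and Igf2.

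WT libraries of the 2 ages share replicate numbers, but same-numbered libraries did not deviate together (correlations -0.0313 to 0.083), and nothing ties them to an animal. With the replicate block the counts were 4675 higher and 4549 lower in the 11 WT libraries, and 5199 and 5103 in all 22. The block ended the calls of Cdk2, Osr2, Smad7 and Tnc. Depth limits genes under about 0.1 CPM, whose P5 levels rest on few counts.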

Other observations

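Genes grouped by the first letters of their symbol, a grouping made after the data were seen, show families that no list covered. All 8 tested Tmprss genes, membrane serine proteases, were higher at P11 with a median change of 4.30, and Tmprss11d among them was highest in P11 WT 4 and 5. Of 30 integrin genes 19 were higher and 7 lower (median 0.81), of 25 Serpin genes, mostly protease inhibitors, 16 and 3 (1.13), of 45 collagen genes 27 and 8 (0.64), and of 22 Dusp genes, phosphatases of MAP kinases, 13 and 2 (0.58). Keratins moved apart, with 19 of 33 higher and 9 lower, all 9 of them at least 2-fold. Of 293 Slc transporter genes, 37.2% were higher and 27.6% lower. Of these genes 52 were at least 2-fold higher and 24 at least 2-fold lower, where 9.7% and 8.34% of all genes tested were. Of 359 Zfp zinc finger genes, 11.1% were higher and 27.6% lower, with a median of -0.11. The shares were 24.8% and 24.7% among all genes tested and 30.2% and 25.9% among protein-coding genes.

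Of 15301 protein-coding genes, 4616 were higher and 3957 lower. Of 1194 antisense genes 11.4% were higher and 25% lower, and of 1524 unconfirmed TEC models 8.73% and 24%. Their shares lower were close to the 24.7% of all genes, and their shares higher were below the 24.8% of all genes. Of 99 miRNA loci as annotated, 9 were higher and 29 lower. The libraries carry no strand, so an antisense count can hold reads of its partner. Mitochondrial genes took 0.804% ± 0.101 of counts at P5 and 1.25% ± 0.0418 at P11 (SD, n = 6 and 5).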
